A study of Mus musculus with 12 samples.

Results

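The regions described here were m6A peaks of mouse skin that lay in long internal exons and were found in both UV-exposed and control skin. A member was a peak of the UV arm of the deposited peak table, 10000 bases or shorter, that overlapped a peak of the control arm on the same strand. Its midpoint had to fall in an exon of its own gene that was neither the first nor the last and was 400 bases or longer, after overlapping annotated exons had been merged. The rule found 2988 members among 42989 peak rows, of which 24969 were from the UV arm and 18020 from the control arm. It used no value of a change with UV, but it left out peaks called in a single arm. The members lay in 2177 exons of 1877 genes on 21 chromosomes. RefSeq classed 1837 of the genes as protein coding, 22 as lncRNA and 2 as transcribed pseudogenes, with 16 unmatched.

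The samples were UV-exposed skin (3 samples, treatment labelled UV) and control skin (3 samples, labelled Control) of Mus musculus, with no strain, age, allele or other agent among the labels. Each sample had a library of RNA bound by an m6A antibody (IP) and an input library, 12 in all. The study is about the m6A writer subunit KIAA1429 in photoaging. How and when UV was given, and whether the samples of a condition were separate animals, is not given in the sources used here, so p-values measure only the spread between these samples. Libraries had 24126662 to 92163619 reads in genes and 13781343 to 93993171 in the rows of the peak table. Summed keratinocyte markers (Krt5, Krt14, Krt1, Krt10) reached 42300 to 65500 CPM (reads scaled to library size) in UV input and 13800 to 46900 CPM in Control input, so the defining markers of epidermis were present. Skeletal muscle markers (Acta1, Ckm, Myh4, Mylpf) summed to 923 to 2700 CPM in UV and 3190 to 7760 CPM in Control.

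N6-methyladenosine is placed on RNA in the nucleus by a complex of the catalytic pair Mettl3 and Mettl14 with Wtap, KIAA1429 (Virma) and other subunits, mostly at adenosines in sequences such as GGACT. Exon junction complexes, which are deposited beside each splice junction, keep the complex away from nearby RNA, so that m6A is known to gather in long internal exons and in last exons. Reader proteins of the YTH family bind the mark and affect the splicing, translation and decay of the transcript.

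Sequence could be read for only a few members, because RefSeq tables (GRCm38.p6) of promoter windows and miRNAs were the sequences used here. The members shown are those of which a promoter window covered 80% or more and which held 1 of 4 motifs known as contexts of the mark. These were GGACT, then GGACA as the form with another last base, likewise GGACC, and the related AGACT. The sequences show how such a context sits inside these members, which were not picked for their values. Only 56 members overlapped a promoter window on either strand, so those shown need not be typical of long internal exons. A peak of Plce1 (a phospholipase C) in an exon of 1538 bases held AGACT and GGACA. A peak of Arhgef12 (a guanine nucleotide exchange factor) in an exon of 809 bases held GGACA, and a peak of Hk1 (hexokinase, the first step of glycolysis) in an exon of 530 bases held GGACT and GGACC. The motif is in capitals and its flanks in lower case, written 5′ to 3′ on the strand of the peak.
Plce1, chr19:38524155-38524183, plus strand: tgcttcgcacaaAGACTggaattatctga
Plce1, chr19:38524187-38524215, plus strand: tatctgttgtctGGACAtgatcgccaggg
Arhgef12, chr9:43105694-43105722, minus strand: ccctcggcccggGGACAtggggcggcgcg
Hk1, chr10:62340189-62340217, minus strand: cgccccgcccagGGACTgagggggaggag
Hk1, chr10:62340132-62340160, minus strand: tccgccgctggaGGACCactgctcaccag

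Such letters are common. Among all 32851 promoter windows cut to the same 149 bases as the stretch searched in Plce1, 14.6% held AGACT and 15.7% held GGACA on the gene strand, and 15.2% and 15.4% on the opposite strand. At 289 bases, as searched in Arhgef12, 27.3% held GGACA on the gene strand and 27.1% on the opposite strand. At 248 bases, as searched in Hk1, 21.2% held GGACT and 22% held GGACC on the gene strand, and 22% and 23.0% on the opposite strand. The window over the Hk1 peak is that of Hk1os on the plus strand, so for Hk1 the opposite-strand shares are the like ones. The opposite strand of the Arhgef12 stretch also held GGACT and GGACC, while that of the Plce1 and Hk1 stretches held none of the 4. The motifs do not overlap one another in these stretches. Covered stretches of Nupr1 (119 bases) and Nfix (142 bases) held none of the 4 on either strand.

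The enrichment of a peak is given as log2 IP over input per sample, with both libraries scaled to their reads in the peak table and 0.5 counts added, so that 0 is the average read of that table. The Plce1 peak had −0.39, −0.15 and 0.57 in UV, against 0.82, −0.34 and −0.42 in Control. The groups overlapped there. The Hk1 peak had 0.47, 0.13 and 0.68 in UV, against −0.16, −0.09 and −0.08 in Control, with every UV value above every Control value. The Arhgef12 peak had 0.52, 0.38 and 1.26 in UV, against −0.17, 0.95 and −0.10 in Control, and the groups overlapped.

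A typical member was short relative to its exon. Peak length had a median of 301 bases (quartiles 210 and 480, range 60 to 9561), and the exon that held the midpoint had a median of 1516 bases (quartiles 827.5 and 2844, range 400 to 17497). The median member spanned bases equal to 21.0% of its exon's length. In 2841 members (95.1%) the whole peak lay inside the exon. Among 307 shared peaks in internal exons shorter than 400 bases, 61.9% lay wholly inside.

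Midpoints lay away from exon ends, which the width of a peak that lies inside its exon partly fixes. The midpoint of the median member lay 360.5 bases from the nearer end of its exon (quartiles 231 and 661.5), and 96 members (3.21%) lay under 100 bases from it. In short internal exons, where few positions are farther away, 58.3% of shared peaks lay under 100 bases from an end, with a median of 89 bases. In last exons, which have 1 splice junction, the median distance was 426 bases and 3.50% of 6407 shared peaks lay under 100 bases from an end. Members were spread over the length of the exon, with a median relative position of 0.467 from its 5′ end (quartiles 0.269 and 0.650), whereas the median in last exons was 0.316. The rule set the exon length and the kind of exon, but not these positions.

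The density of shared peaks, each placed by its midpoint, was higher in long internal exons than in short ones. Genes with a shared peak had 81854 internal merged exons, of which 10261 (12.5%) were 400 bases or longer and held 56.2% of the internal exon bases. Of the long exons 21.2% held a member, against 0.429% of the short ones with a shared peak. Per megabase (Mb) there were 229 members in long exons and 30.2 shared peaks in short ones. The density already differed below the limit of the rule, with 11.7 per Mb in exons under 100 bases, 15.3 from 100 bases, 37.4 from 200 bases and 115 from 300 bases. Above the limit it was 211 per Mb from 400 bases, 303 from 600 bases, 272 from 1000 bases, 170 from 2000 bases and 267 from 5000 bases, so it did not go on climbing with length. The exons were those of genes with any shared peak, and no allowance was made for how highly a gene is expressed or which of its annotated exons skin uses. Shared peaks with an intronic midpoint (2560) and those above the length limit of the rule (584) were counted in neither class. Such peaks outnumber the 307 placed in short internal exons. How many of them also covered short exons was not tested. The difference in density therefore holds only for peaks placed by their midpoint.

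**Figure D1:**
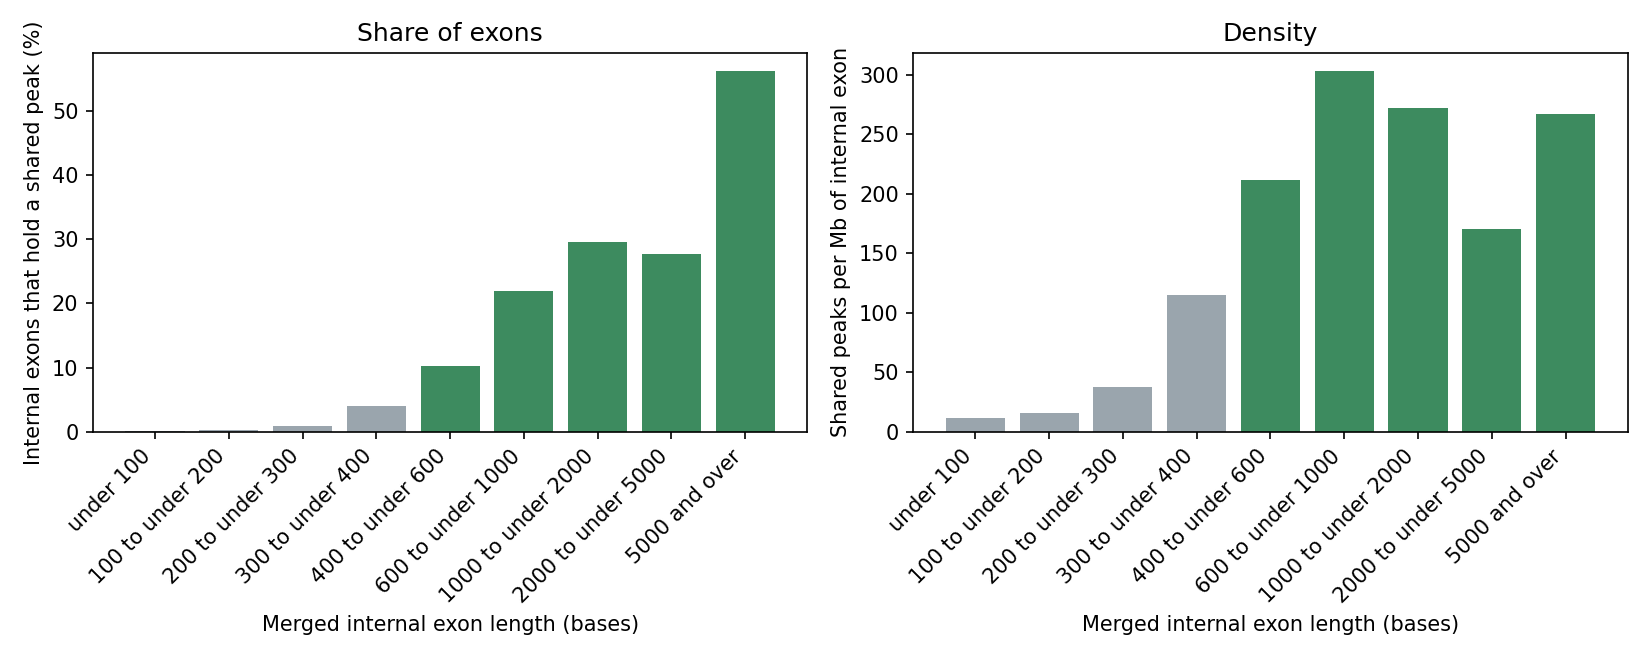
Percent of internal exons that hold a shared peak (left) and shared peaks per Mb of internal exon (right), by length of the merged exon in bases, over 81854 internal exons of genes with a shared peak. Green bars are exons at or above the 400-base limit. Peaks are placed by their midpoint, so shared peaks with an intronic midpoint are not counted. The share is 10.2% from 400 bases and 56.3% from 5000 bases, while the density is highest, at 303 per Mb, from 600 bases.

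By exon length, 350 members (11.7%) were in exons from 400 bases to under 600, 625 (20.9%) from 600 bases, 860 (28.8%) from 1000 bases, 885 (29.6%) from 2000 bases and 268 (8.97%) in exons of 5000 bases or longer. Median peak length was 241, 300, 330, 330 and 300 bases over these steps, a narrow range beside that of the exons. The peak therefore equalled 49.0% of the exon at the short end and 3.86% at the long end. In 1218 members (40.8%) the exon was the longest of its gene, in 467 (15.6%) it was the second exon and in 487 (16.3%) the last but one. The annotation gave a single form of the exon for 1216 members (40.7%) and several forms for 1772 (59.3%), some of which may be a last or first exon of another transcript.

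At the 400-base limit the members just inside were peaks of Cdh11 (a cadherin of mesenchymal cells, exon of 400 bases), Golgb1 (the Golgi protein giantin, 403 bases) and Igsf3 (an immunoglobulin superfamily member, 405 bases). Just outside were peaks of Dcaf6, Lrp5 and Lrp6, all in exons of 397 bases, the last pair encoding Wnt coreceptors. The Cdh11 peak had 70, 275 and 128 reads in UV IP, with 47, 83 and 72 in UV input, and 137, 107 and 63 reads in Control IP, with 67, 29 and 79 in Control input. The Lrp6 peak had 232, 649 and 324 reads in UV IP, with 163, 236 and 263 in UV input, and 400, 560 and 193 reads in Control IP, with 261, 94 and 215 in Control input. The 2 peaks, 1 on each side of the limit, each had more reads in IP than in input in every sample but Control sample 3, before any scaling. The libraries differed in the same way. IP had more reads in the peak table than input in every sample but Control sample 3 (28038219 against 31890239). These raw counts therefore do not show enrichment.

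Peaks of the 2 arms met closely at most members, but not at all. The overlap covered 50% or more of both peaks in 2206 members (73.8%), and 227 (7.60%) had the same start and end in both arms. As a share of the longer peak, the overlap had a lower quartile of 0.464 and a minimum of 0.000194. It was small at some peaks described below, among them peaks of Macf1 (0.0055), Inhba (0.0114), Fcgbp (0.0172), Baz2b (0.0362) and Muc1 (0.0816). Such pairs need not be the same site in both arms. Of all UV-arm peaks with their midpoint in a long internal exon, 4658 in number, 64.1% overlapped a control-arm peak, compared with 38.4% of 800 in short internal exons and 58.0% of 11040 in last exons. Only 14 members overlapped another member.

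The median member stood above the average read of the table in every sample. Median log2 IP over input was 0.34, 0.30 and 0.35 in UV and 0.15, 0.27 and 0.16 in Control. The quartiles ran from −0.03 or higher to at most 0.75 in UV and from −0.14 or higher to at most 0.68 in Control. Shared peaks in short internal exons had medians of −0.03, −0.06 and 0.02 in UV and −0.07, −0.04 and −0.03 in Control, below the members in all 6 samples. Shared peaks in last exons had 0.52, 0.47 and 0.51 in UV and 0.25, 0.41 and 0.31 in Control, above the members in all 6 samples. Over the other 11231 shared peaks up to 10000 bases the mean of the sample medians was 0.33 ± 0.03 in UV and 0.19 ± 0.07 in Control (SD, n = 3 each), the same as for the members to that precision. Peak calling selected on enrichment, so these levels are a description.

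**Figure D2:**
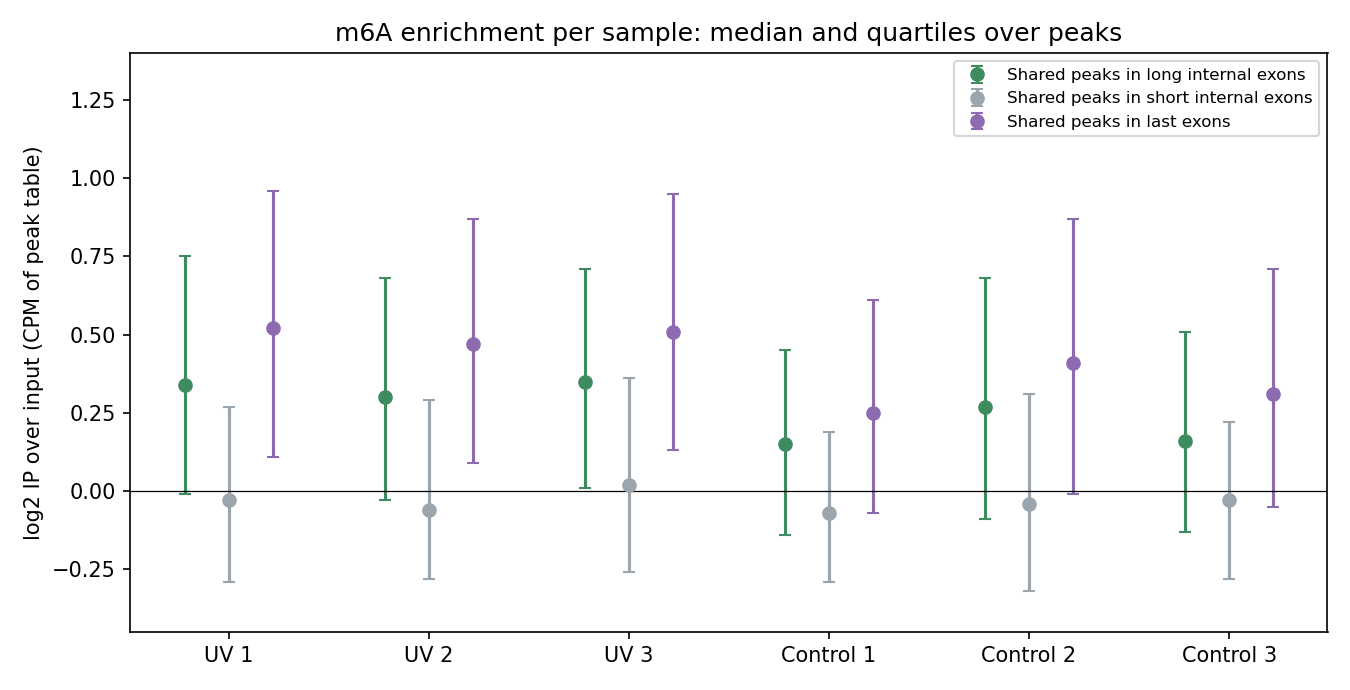
Median log2 IP over input per sample (points) with the quartiles over peaks (bars), UV samples left of Control samples, for shared peaks in long internal exons (2988), short internal exons (307) and last exons (6407). In each of the 6 samples the long internal exons lie between the short internal exons below and the last exons above.

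The level depends on what the reads are scaled to. Scaled to all reads in genes in place of reads in peaks, the members' mean of sample medians was 1.19 ± 0.02 in UV and 1.07 ± 0.07 in Control (SD, n = 3 each). The member rows are UV-arm rows, and in all 24969 UV-arm rows, shared or not, the mean of sample medians was 0.28 ± 0.03 in UV and −0.02 ± 0.07 in Control, while in control-arm rows it was 0.29 ± 0.02 in UV and 0.24 ± 0.06 in Control. The arm from which rows are taken thus moves with the difference between UV and Control medians, and no difference between them is drawn from these medians.

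Within the members, enrichment hardly followed exon length. Exons from 400 bases to under 600 had medians of 0.21, 0.18 and 0.22 in UV and 0.07, 0.18 and 0.07 in Control. Exons from 1000 bases to under 2000 had 0.41, 0.36 and 0.39 in UV and 0.20, 0.35 and 0.23 in Control, the highest of the 5 length steps in each sample. Exons of 5000 bases or longer had 0.24, 0.25 and 0.27 in UV and 0.07, 0.12 and 0.08 in Control. Across the 2988 peaks, which share the same 12 libraries and often a gene, the Spearman rank correlation of mean enrichment was 0.00 with exon length, 0.01 with distance to the nearer exon end and −0.04 with peak length. It was −0.53 with summed input reads, which are also the denominator of the ratio. Between the quartiles of input reads, the members below the lowest quartile had a median of 0.80 in UV and 0.51 in Control, and those above the highest had 0.07 in UV and 0.05 in Control.

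Depth behind the values was uneven. The median member had 1762 IP reads and 749.5 input reads summed over 6 samples, and 197 members had under 60 input reads. The median SD among 3 samples was 0.19 in UV and 0.23 in Control on the log2 scale.

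The members with the most IP reads belonged to abundant skin transcripts. Dsp, which encodes desmoplakin, the linker of desmosomes to keratin filaments, had 3 members in 1 exon of 2295 bases, the foremost with 1233648 IP reads and 626320 input reads. That peak (chr13:38191485-38191935) had 0.07, 0.06 and 0.04 log2 IP over input in UV, against 0.00, 0.01 and 0.06 in Control. A peak of Hsp90ab1 (the constitutive HSP90 chaperone) had 1157558 IP reads, with 0.17, 0.14 and 0.06 in UV and 0.16, 0.01 and 0.17 in Control. The groups overlapped at both, and both lay close to the average read of the table. Plec (the cytolinker plectin), Ankrd11 (a chromatin regulator), Mki67 (the Ki-67 proliferation antigen) and Flg2 (filaggrin 2, of the cornified layer) made up the rest of the 8 highest. Reads were not scaled to peak length in this ranking. The peaks of Plec (5733 bases), Ankrd11 (4541) and Mki67 (2247) were wide beside the median of 301 bases.

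The most enriched members had few reads. Among members with at least 60 input reads, the highest was a peak of 90 bases of Pet100, a cytochrome c oxidase assembly factor, with 2.84, 2.72 and 2.99 in UV and 1.53, 2.73 and 2.86 in Control on 1391 IP and 132 input reads. A peak of Kmt2c, a histone H3 lysine 4 methyltransferase gene, had 2.10, 2.34 and 1.59 in UV and 1.30, 2.04 and 1.25 in Control on 669 IP and 108 input reads. A peak of Extl3, which acts in heparan sulfate synthesis, had 1.44, 1.99 and 1.69 in UV and 1.66, 1.51 and 1.65 in Control on 4520 IP and 715 input reads. UV and Control overlapped at all 3. Peaks of Amz1, Dtx1, Speg, Skida1 and Parp4 complete the 8 highest, with 89 to 206 input reads each.

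Members often came in groups. While 1297 genes had 1 member, 58 genes had 5 or more and held 412 members, and 486 exons held 2 or more. Ttn, the sarcomere protein titin, had 25 members in 9 exons, 13 of them in its exon of 17106 bases. Ahnak, a giant scaffold protein of the cell cortex, had 22, all in its exon of 17497 bases. Kmt2d, a histone H3 lysine 4 methyltransferase gene, had 12, and 11 each fell in Dst (the hemidesmosome linker dystonin), Fat1 (a giant cadherin), Macf1 (a linker of microtubules and actin) and Vcan (the proteoglycan versican).

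Within a single exon enrichment varied more between peaks than between samples. The 22 Ahnak peaks ranged from −0.57 to 0.90 in UV and from −0.88 to 0.78 in Control as means of 3 samples, with a median SD among samples of 0.06 in both groups. The highest lay 15334.5 bases from the exon's 5′ end (chr19:9016823-9017243) and had 0.93, 0.87 and 0.90 in UV, against 0.70, 0.98 and 0.66 in Control. The lowest lay 10212 bases from it (chr19:9011701-9012120) and had −0.44, −0.64 and −0.62 in UV, against −0.84, −0.95 and −0.86 in Control. The highest, second highest and lowest peaks were the same in both groups, while the order in between differed. The peak 12474 bases from the 5′ end ranked 3 in UV, with 0.32, 0.27 and 0.19, and tied for rank 6 in Control, with −0.23, −0.15 and −0.17. All 22 means were higher in UV, by 0.05 to 0.44. Relative to the table as a whole in edgeR's fit with TMM the changes ran from −0.06 to 0.33, 4 of them below 0, and the lowest adjusted p was 0.598.

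Macf1 peaks lay below 0 along the exon with most of them. Its 6 peaks in an exon of 5361 bases had means from −1.79 to −0.44 in UV and from −1.59 to −0.28 in Control. The lowest, a peak of 61 bases (chr4:123476131-123476191), had −1.96, −1.77 and −1.64 in UV, against −1.69, −1.11 and −1.96 in Control. The ratio of IP to input at this called peak was thus lower than over all reads of the table, on 1833 IP reads and 2913 input reads.

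**Figure D3:**
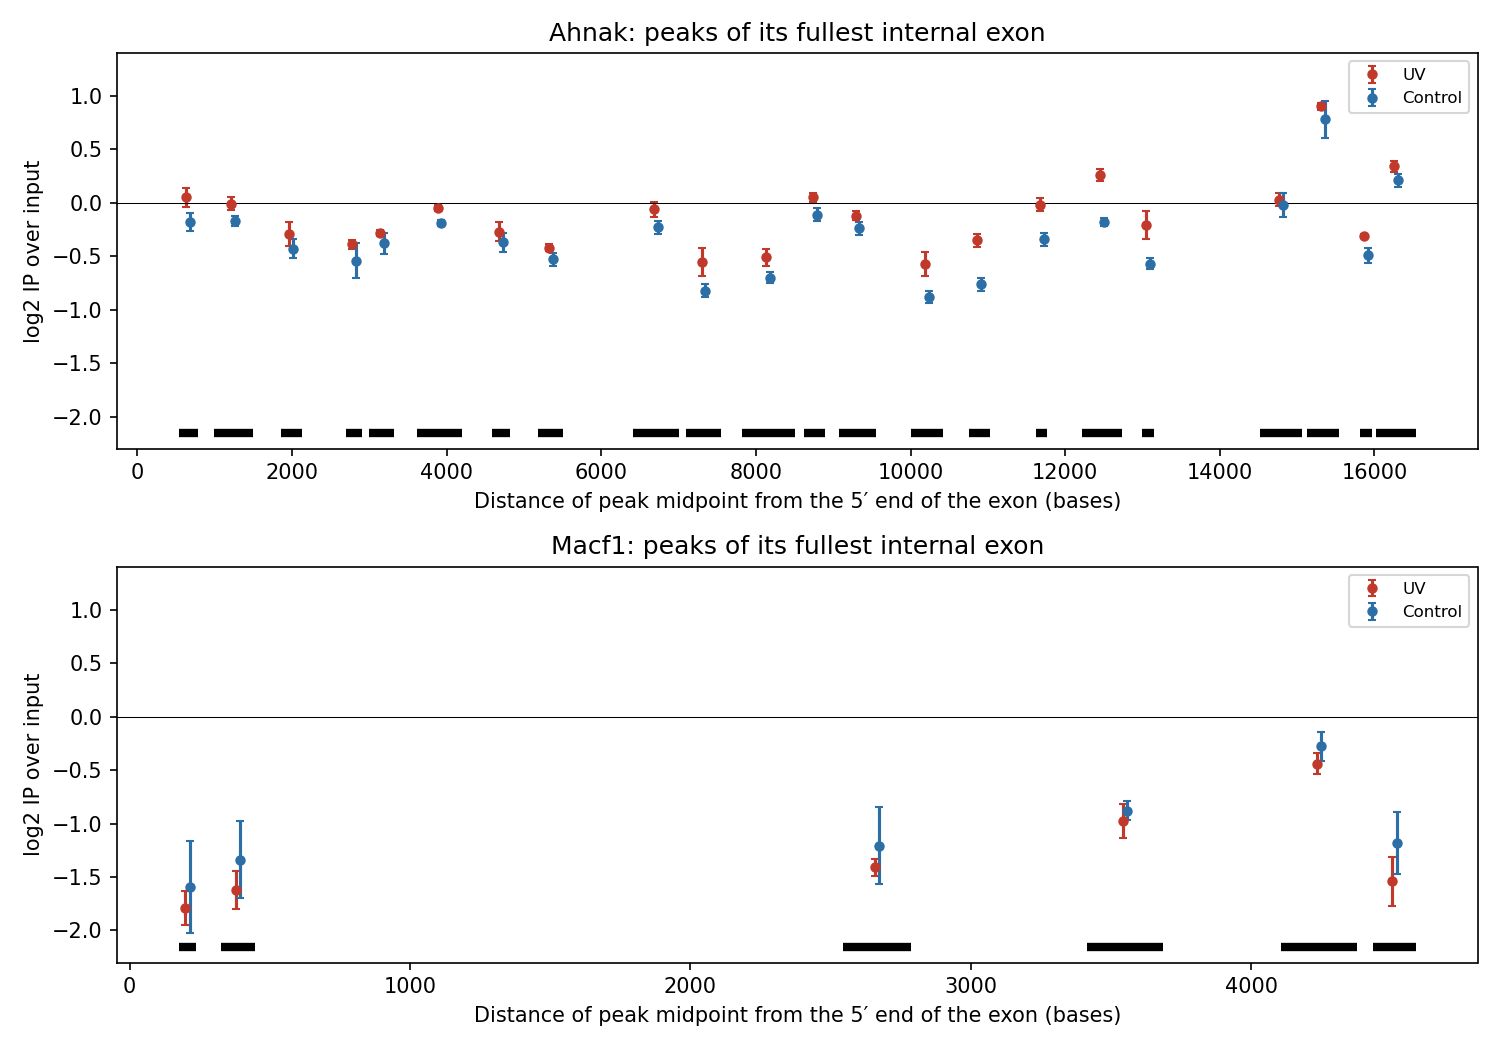
Mean log2 IP over input with SD over 3 samples, UV and Control, of the 22 Ahnak peaks (top) and the 6 Macf1 peaks (bottom) of 1 internal exon each, against distance of the peak midpoint from the exon's 5′ end in bases. Black bars mark the peaks. Ahnak runs from −0.88 to 0.90 along 17497 bases, and its highest and lowest peaks are the same in both groups.

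Titin peaks ranged from −1.49 to 1.66 in UV and from −1.64 to 1.06 in Control. The Ttn transcript stood at 5200, 2920 and 7960 CPM in UV input, against 6040, 13500 and 7260 CPM in Control input (log2 −0.73, SE 0.39, adjusted p = 0.282, edgeR's quasi-likelihood test with Benjamini-Hochberg adjustment). The muscle markers given above moved with it, and none of the 4 passed the test. Fewer muscle cells in a sample and less RNA per cell cannot be told apart in whole skin. Other long exons with members were in Zfp451 (11478 bases), Ino80d (11345, a chromatin remodelling subunit) and Ubn2 (10526, a histone chaperone subunit). The Ino80d peak had 1.02, 1.26 and 1.11 in UV, against 0.29, 0.60 and 0.85 in Control, with no overlap. Its change of 0.45 (SE 0.19) had an adjusted p of 0.594 in edgeR's quasi-likelihood test. With the sample shared by IP and input held as a block, the adjusted p was 0.182 in the same test.

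The next question was whether m6A at these sites changed with UV, tested as the difference between UV and Control in IP over input. Of 2938 members that passed the low-count filter, 0 were called at an adjusted p below 0.05 in edgeR's quasi-likelihood test, and 0.0% of all 39910 peak rows were called. At an unadjusted p below 0.05 there were 89 members higher and 77 lower in UV, which is 5.65% of members beside 8.08% of all rows. All rows include peaks called in a single arm, which the rule kept out of the members, so these shares compare unlike sets. The DESeq2 Wald test also called 0 members. The members' median change was 0.00 on the log2 scale and that of all rows 0.03. With library sizes alone in place of TMM the medians were 0.12 and 0.14, so a change near that size has no settled sign.

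IP and input libraries came from the same sample, and the fit that holds the sample as a block called 4 members higher and 14 lower in UV. That is 0.613% of members, beside 0.872% of all rows under the same fit (0.393% higher and 0.479% lower), which again include peaks called in a single arm. Huwe1, a ubiquitin ligase gene, had 1.28, 0.89 and 1.18 in UV, against 0.52, −0.05 and 0.10 in Control, in an exon of 610 bases. Its change was 0.78 (SE 0.18) with the block (adjusted p = 0.0307, edgeR) and 0.78 (SE 0.21) without it (adjusted p = 0.495, edgeR). The IP reads of this peak alone were not called (log2 0.09, adjusted p = 0.836, edgeR). Srrm2, a spliceosome scaffold gene with a peak of 1647 bases in an exon of 6569 bases, had 0.24, 0.05 and 0.12 in UV, against −0.32, −0.41 and −0.34 in Control. Its change was 0.38 (SE 0.10) with the block (adjusted p = 0.0466, edgeR).

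Lrr1, a leucine-rich substrate receptor of a ubiquitin ligase, had 0.50, 0.55 and 0.36 in UV, against −1.58, 0.27 and −1.06 in Control. Its change was 1.32 (SE 0.31) with the block (adjusted p = 0.0336, edgeR) and 1.46 (SE 0.45) without it (adjusted p = 0.54, edgeR). It was also the only member with an FDR below 0.05 in the authors' deposited table, which gives it a log2 change of 1.45 and an FDR of 0.0385. Of the 42986 rows with an FDR in the authors' deposited table, 0.105% were below 0.05. The Lrr1 peak rests on 767 IP and 594 input reads, and the second Control sample lay near the UV samples. Its IP reads alone were not called (log2 0.02, adjusted p = 0.983, edgeR). Its input reads stood at 2.07, 1.69 and 1.95 CPM in UV, against 7.67, 1.78 and 5.19 CPM in Control, so Control samples 1 and 3 stood apart in input. In Control sample 1 the peak held 261 input reads. The Lrr1 gene there stood at 0.646 CPM of 58015420 reads in genes, which is fewer reads than the peak held. Reads of this peak were thus not all counted to Lrr1. The fourth that rose, a peak of Ttn, had 0.46, 0.58 and 0.64 in UV, against −0.19, −0.12 and 0.01 in Control, with a change of 0.56 (SE 0.13, adjusted p = 0.0293, edgeR) under the block, beside the muscle markers above.

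Of the 14 that fell under the block, 6 are described first, and they were named after their values were seen. Among the 115 members of the listed chromatin regulators, 6 had an unadjusted p below 0.05 without the block, and their median change was 0.01. Phf23, a plant homeodomain protein gene, had 0.12, 0.28 and 0.15 in UV, against 0.58, 0.58 and 0.53 in Control, a change of −0.49 (SE 0.09) with the block (adjusted p = 0.0104, edgeR) and −0.49 (SE 0.12) without it (adjusted p = 0.495, edgeR). Arid4b, a subunit of a histone deacetylase complex, had −0.15, −0.08 and −0.28 in UV, against 0.36, 0.17 and 0.11 in Control, and its change with the block was −0.49 (adjusted p = 0.0196, edgeR). Nfx1 (−0.55), Nab1 (−0.45), Zfp710 (−0.45) and Brwd1 (−0.36) also fell in enrichment, with adjusted p from 0.0171 to 0.0347 in the same fit. They encode transcription factors, a transcriptional corepressor and a bromodomain protein. The IP reads alone were called at none of these 6. Their log2 changes in IP reads ran from −0.26 at Phf23 (adjusted p = 0.15, edgeR) to 0.20 at Nab1 (adjusted p = 0.384, edgeR). At each of these 6 the UV and Control values did not overlap, but the peaks were picked by a test on these same values. The rest were peaks of Fcgbp (−0.65), Socs6 (−0.51, a suppressor of cytokine signalling), Myo18a (−0.48, a myosin), Capn15 (−0.45, a calpain), 2010111I01Rik (−0.45), Znfx1 (−0.42, an antiviral RNA sensor), Serpina12 (−0.42, the serpin vaspin) and Erp29 (−0.35, an endoplasmic reticulum protein), which were named after their values were seen. Of the 14, only the Fcgbp peak was also called for IP reads alone (−2.62, adjusted p = 4.26e-05, edgeR). At Serpina12 the IP reads changed by 0.58 (adjusted p = 0.175, edgeR), the other way from its enrichment.

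**Figure D4:**
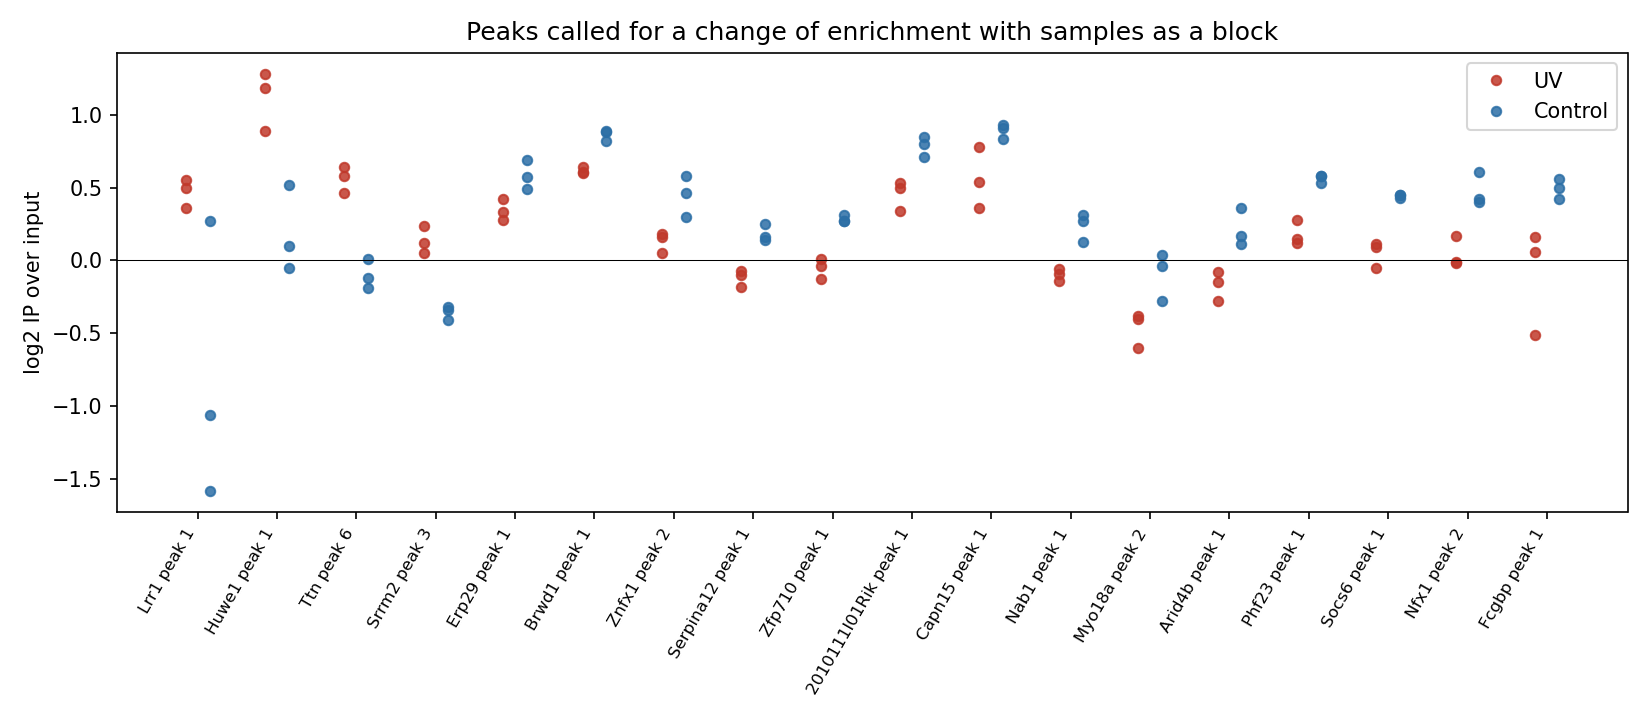
Log2 IP over input in each of 3 UV and 3 Control samples (points, UV left of Control) at the 18 members called for a change of enrichment when the sample was held as a block, ordered by the fitted change. The first 4 (Lrr1, Huwe1, Ttn, Srrm2) are higher in UV and the other 14 lower; without the block 0 members were called.

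Further members with a small unadjusted p were called by neither fit. Muc1, a transmembrane mucin gene, had 1.84, 1.71 and 3.52 in UV, against −0.38, −0.17 and −0.12 in Control, on 178 IP and 50 input reads. Its change was 2.52 (SE 0.59, adjusted p = 0.495, edgeR). Chpf2, which encodes a chondroitin polymerase, had 1.61, 1.51 and 1.52 in UV, against 0.27, 0.81 and 0.86 in Control, with a change of 0.81 (SE 0.24, adjusted p = 0.54, edgeR). This peak (chr5:24591953-24592430, plus strand) holds the whole hairpin of Mir671, which is shown because only 2 members held a miRNA hairpin on their strand, the other in Tlcd1. The mature miRNAs of the Chpf2 hairpin are given by RefSeq (GRCm38.p6) with the seed, bases 2 to 8, in capitals.
mmu-miR-671-5p, chr5:24592132-24592154: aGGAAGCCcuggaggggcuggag
mmu-miR-671-3p, chr5:24592171-24592191: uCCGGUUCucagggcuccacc

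Their seeds differ, and an antibody-bound fragment of this peak cannot be assigned to the Chpf2 transcript or the hairpin from counts. Ets1, a transcription factor gene, had 1.95, 2.25 and 1.93 in UV, against 0.79, 1.26 and 0.87 in Control (1.04, SE 0.32, adjusted p = 0.54, edgeR). Arhgap33, a GTPase activating protein gene, had 1.96, 1.32 and 1.46 in UV, against −0.30, 0.34 and −0.14 in Control (1.64, SE 0.50, adjusted p = 0.54, edgeR). Baz2b, a bromodomain protein gene, had −0.30, 0.30 and −0.06 in UV, against 0.51, 0.45 and 0.39 in Control (−0.58, SE 0.18, adjusted p = 0.54, edgeR). In these 5 the groups did not overlap, but the peaks were picked by a small p on these same values.

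Antibody-bound reads alone were then compared between UV and Control. In edgeR's quasi-likelihood test 26 members in 22 genes rose and 23 members in 18 genes fell, 1.67% of the 2938 tested, beside 2.03% of all rows (1.27% higher and 0.769% lower). The share of members called was thus close to that of the table. Without Control sample 3 the counts were 41 and 33, and without UV sample 1 they were 10 and 8. Without UV sample 2 they were 14 and 8, without UV sample 3 they were 18 and 15, without Control sample 1 they were 14 and 10, and without Control sample 2 they were 21 and 11.

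Most members called for IP reads lay in genes whose transcript was called in the same direction. Of the 26 that rose, 21 lay in genes whose level rose in input, and of the 23 that fell, 18 lay in genes whose level fell. The other 5 that rose had log2 changes of level from 0.39 to 0.72 (adjusted p from 0.0639 to 0.125, edgeR), and the other 5 that fell from −0.93 to −0.07 (adjusted p from 0.0773 to 0.65, edgeR). None lay in a gene called in the opposite direction. Igsf9b, an adhesion molecule gene, rose by 2.19 in IP reads (SE 0.35, adjusted p = 0.0037, edgeR) and by 1.83 in input (SE 0.15, adjusted p = 0.00208, edgeR). Its transcript stood at 18.3, 16.0 and 14.1 CPM in UV, against 5.12, 4.62 and 3.85 CPM in Control. Acacb, which encodes the mitochondrial acetyl-CoA carboxylase, rose by 1.08 in IP reads (adjusted p = 0.000179, edgeR) and by 0.81 in input (adjusted p = 0.0133, edgeR, and 0.0612 at most without UV sample 1 or 2). Nr1d2, the clock repressor REV-ERB beta, rose by 0.92 in IP reads (adjusted p = 0.000529, edgeR) and by 0.79 in input. Coil, the scaffold of Cajal bodies, had 2 members that rose by 0.97 and 1.05, beside 1.15 in input. Apaf1, the apoptosome scaffold, rose by 1.58 in IP reads (SE 0.26, adjusted p = 0.004, edgeR) and by 0.61 in input (adjusted p = 0.0188, edgeR, and up to 0.0917 without any 1 UV sample or with library size alone). Its log2 IP over input overlapped between groups, with −0.02, −0.13 and 0.31 in UV, against −0.21, −0.84 and 0.33 in Control.

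Fcgbp, a mucin-like secreted protein gene, had 4 members in 4 exons, and all fell in IP reads, with log2 changes of −2.62, −2.37, −2.21 and −2.36 (highest adjusted p 4.82e-05, edgeR). Its transcript had 29.7, 41.7 and 45.2 CPM in UV, against 247, 150 and 224 CPM in Control (−2.41, SE 0.21, adjusted p = 0.00262, edgeR). Flg2 fell by 1.35 on the log2 scale, both in IP reads (adjusted p = 0.00012, edgeR) and in input (adjusted p = 0.00491, edgeR), with 1150, 850 and 1290 CPM in UV, against 2930, 2580 and 2850 CPM in Control. Tnxb, which encodes the matrix glycoprotein tenascin X, had 2 members that fell by 0.76 and 0.87, beside −0.86 in input. The calls of Igsf9b, Acacb, Nr1d2, Apaf1, Fcgbp and Flg2 in IP reads were kept under every alternative tried, as were those of the first Coil peak and the second Tnxb peak. Other calls were lost when a single sample was left out, with adjusted p up to 0.254 in edgeR. Zbtb16 (1.17) lost its call without any 1 UV sample, and Arhgap24 (0.97) without UV sample 1 or 3. Per1 (1.04), Inhba (0.95), Dclk3 (−1.12) and Dmxl2 (−0.99) lost theirs without any 1 UV sample or Control sample 1 or 2, and D7Ertd443e (−0.90) without any 1 UV sample or Control sample 2. Dleu2 (−1.18) lost its call without UV sample 2 or 3 or Control sample 1 or 2, and the second Coil peak without UV sample 1 or 3 or Control sample 1 or 2. The transcripts of 5 of these did not pass the test for level. Their log2 changes in input were 0.72 for Zbtb16 (adjusted p = 0.0744), 0.48 for Inhba (0.0838), −0.93 for Dclk3 (0.0792), −0.48 for Dmxl2 (0.0773) and −0.33 for Dleu2 (0.196), all in edgeR.

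Transcript levels of the genes that hold members were compared in input. Of 1875 such genes tested, 64 rose and 41 fell in UV in edgeR's quasi-likelihood test, 5.60% beside 5.83% of all 24099 genes (3.02% higher and 2.81% lower). The share was thus close to that of all genes. Of the called members' genes 61.0% were higher in UV, and with library size alone 30.8% were, with 28 up and 63 down. Of all called genes 51.9% were higher in UV, and 30.9% with library size alone. The median of all genes was −0.02 with TMM and −0.12 with library size alone. Without Control sample 3 the counts were 105 and 78, beside 1237 and 863 over all genes. They were 10 and 5 without UV sample 1 (all genes 101 and 118) and 14 and 9 without UV sample 2 (161 and 158). They were 16 and 10 without UV sample 3 (169 and 167) and 19 and 7 without Control sample 1 (177 and 268).

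Among the genes with the largest rise, Per1, a core repressor of the circadian clock, had 59.6, 83.4 and 68.5 CPM in UV, against 26.5, 37.5 and 34.4 CPM in Control (1.11, SE 0.16, adjusted p = 0.0101, edgeR). Sphk2, a sphingosine kinase gene, had 64.0, 51.9 and 71.3 CPM in UV, against 32.6, 30.6 and 32.0 CPM in Control (0.97, SE 0.12, adjusted p = 0.00533, edgeR). Coil had 20.5, 17.5 and 20.5 CPM in UV, against 9.20, 7.63 and 9.37 CPM in Control (1.15, SE 0.12, adjusted p = 0.00367, edgeR). No UV value met a Control value in these 3, which the rule that named them required. All 3 calls were kept under the 11 alternatives. Serpina3b (0.93), Serpina12 (0.89), Rbm47 (0.85, an RNA-binding protein) and Gk5 (0.84, a glycerol kinase of sebaceous glands) also rose, but lost their calls with a sample left out, with adjusted p up to 0.142 in edgeR. Gk5 lost it without UV sample 1 or 2, Rbm47 without any 1 UV sample or Control sample 1, Serpina12 without UV sample 1 or 3 or Control sample 1 or 2, and Serpina3b without UV sample 2 or 3 or Control sample 1 or 2.

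Beside Fcgbp and Flg2, Ctnnd2, a delta-catenin gene, fell to 3.15, 3.26 and 3.41 CPM in UV, against 7.33, 6.97 and 7.21 CPM in Control (−1.13, SE 0.12, adjusted p = 0.00378, edgeR). Cpxm2 (−0.99, a carboxypeptidase-like protein), Wnk2 (−0.99, a kinase), Tnxb (−0.86), Id3 (−1.04, an inhibitor of helix-loop-helix factors) and D7Ertd443e (−0.86) also fell. Tnxb lost its call without UV sample 1 (highest adjusted p 0.0531, edgeR), and Id3 and D7Ertd443e lost theirs without any 1 UV sample or Control sample 1 (up to 0.0963 and 0.102). Some markers of other cells were also lower in UV. All 3 T cell markers (Cd3e, Cd3g, Trdc) fell, with sums of 1.06 to 1.45 CPM in UV and 7.64 to 10 CPM in Control. Of 4 dermal fibroblast markers 2 fell, and all 4 summed to 4570 to 5320 CPM in UV and 6430 to 7060 CPM in Control. Of 3 macrophage markers 1 fell. No marker of keratinocytes, hair follicle, fat cells, skeletal muscle or endothelium was called, with median log2 changes of 0.82, −0.52, 0.26, −1.42 and 0.35. The part of these cells in the results was not tested.

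**Figure D5:**
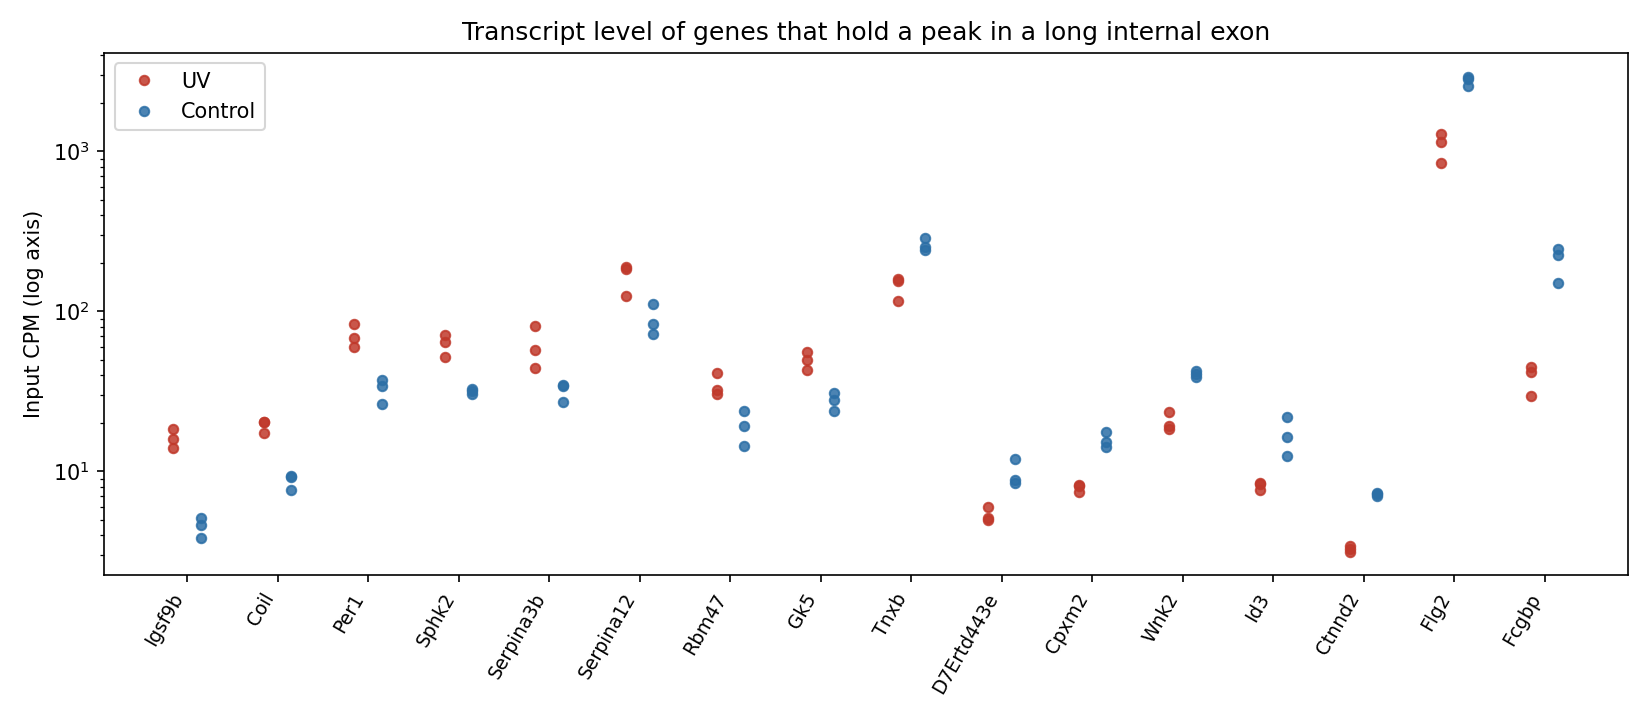
Input CPM (log axis) in each of 3 UV and 3 Control samples (points, UV left of Control) for the 16 called genes with a member and a mean of at least 5 CPM that changed most without overlap of the groups, ordered by the fitted log2 change. Igsf9b, at the left, is 1.83 higher and Fcgbp, at the right, 2.41 lower in UV on the log2 scale.

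Gene lists were chosen with earlier results of these data known, and are described by counts. Of 56 listed chromatin regulators, whose genes often have very long internal exons, 40 held 115 members, and 0 of the 40 passed the test for transcript level at an adjusted p below 0.05 in edgeR (median log2 change −0.05, against −0.02 over all genes). The nearest by p included Jarid2, a subunit partner of Polycomb, with 215, 198 and 188 CPM in UV, against 140, 167 and 162 CPM in Control (0.36, adjusted p = 0.0651, edgeR). Their members had medians of 0.36 in UV and 0.23 in Control for log2 IP over input.

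Of 32 nuclear receptors, coregulators and large zinc finger factors, 23 held 71 members and 0 passed the test for level, with a median of −0.04. Hivep2, a zinc finger factor gene, had 105, 86.2 and 114 CPM in UV, against 59.7, 82.2 and 80.7 CPM in Control (0.45, adjusted p = 0.102, edgeR). Of 15 cell division genes 7 held 25 members and 0 passed, with Mki67 at 906, 1070 and 923 CPM in UV, against 919, 996 and 861 CPM in Control, groups that overlap.

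DNA damage and repair genes held 46 members in 19 of 27 listed genes, of which 3 rose and 0 fell. Over the whole list 6 rose and 0 fell of 27 tested, where 3.02% of all genes rose and 2.81% fell. Ercc5, the XPG endonuclease of nucleotide excision repair, had 70.9, 66.4 and 63.8 CPM in UV, against 42.8, 38.8 and 39.0 CPM in Control (0.74, SE 0.08, adjusted p = 0.00468, edgeR). Its member rose by 0.69 in IP reads. Brca2, of homologous recombination, rose by 0.57 and Msh6, of mismatch repair, by 0.47, with adjusted p of 0.0226 and 0.0119 in edgeR. Brca2 lost its call without any 1 UV sample or Control sample 1 and Msh6 without UV sample 1 or 2, with adjusted p up to 0.0751, and both lost it with library size alone. Xpc, the damage sensor, had 42.6, 45.4 and 46.9 CPM in UV, against 41.1, 38.9 and 38.1 CPM in Control, and did not pass (0.19, adjusted p = 0.169, edgeR). The median change of level was 0.08 over the 19 genes with a member and 0.1 over the whole list.

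Cytoskeletal linkers and centrosome genes held 100 members in 20 of 28 genes, with 1 rise and 1 fall. Ank3, an ankyrin of the membrane skeleton, rose by 0.44 and Akap12, a scaffold for protein kinase A, fell by 0.61, with adjusted p of 0.0182 and 0.0189 in edgeR, and each lost its call without any 1 UV sample or Control sample 1 (up to 0.0974 and 0.0925). Ank3 also lost it with library size alone. The members of this list had medians of 0.05 in UV and −0.09 in Control, lower than those of all members, as Macf1 and Ahnak show. Of 36 listed extracellular matrix genes 10 held 45 members, and 1 rose and 1 fell. Col12a1, a fibril-associated collagen, had 223, 265 and 222 CPM in UV, against 151, 133 and 151 CPM in Control (0.71, SE 0.10, adjusted p = 0.00966, edgeR), while Tnxb fell. Over the whole matrix list 3 genes rose and 6 fell of 35 tested.

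Of 15 circadian clock genes 3 held 1 member each. Over the whole list 9 rose and 2 fell, beside 5.83% of all genes called, so most of the genes that rose held no member. Per1 and Nr1d2 rose, and Hlf, a clock output factor, had 7.07, 6.03 and 8.96 CPM in UV, against 9.32, 8.48 and 7.57 CPM in Control (−0.20, adjusted p = 0.486, edgeR). The Per1 member had 2.10, 1.56 and 1.94 log2 IP over input in UV, against 0.91, 0.17 and 1.38 in Control, with no overlap. Its change of 0.85 (SE 0.40) was not called (adjusted p = 0.618, edgeR), nor was it with the sample block (adjusted p = 0.164, edgeR). Of the m6A machinery, 7 of 21 listed genes (Wtap, Zc3h13, Ythdf1, Ythdf2, Ythdf3, Ythdc1 and Alkbh5) held 9 members themselves. None of the 7 passed the test for level, with a median of 0.06, and Ythdc1, a nuclear m6A reader, had 201, 215 and 233 CPM in UV, against 184, 210 and 201 CPM in Control (0.13, adjusted p = 0.423, edgeR). The 9 members had medians of 0.16 in both UV and Control.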

How the data were processed

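The authors deposited 2 tables, per the file headers. The first holds raw read counts per gene with annotated exons, and the second raw read counts per peak with a log2 fold change of enrichment, a p-value and an FDR of the authors. STAR 2.5.3a and GRCm38 are named, per the submitters' processing notes. The kit marks strand, per the labels' protocols. Not given in the sources used here are the antibody, the read counter, the annotation release, how peaks were called and which test the authors ran. Of the deposited counts from 1 to 20, even ones made up 79.5% to 83.6% per gene, as when both mates are counted, and 52.5% to 59.2% per peak, so reads are not independent fragments. Peak starts counted from 0 (1966 met an exon start after 1 was added, at most 118 at other offsets), and coordinates are printed from 1.

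Members and lists were chosen with earlier results of these data known. Counts were fitted with TMM, filterByExpr and the quasi-likelihood test of edgeR 4.0.16 (R 4.3.3; DESeq2 1.42.0 as an alternative), on the peak table with 4 group means over 12 libraries and on the gene table with the 6 input libraries, with Benjamini-Hochberg adjustment over all rows. The fits were tested on simulated data. IP and input libraries with the same number deviated together over genes (r 0.187 to 0.399, against −0.351 to −0.0832 for other numbers), so the number pairs them. Members were named by rank of the test for a change of enrichment, of IP reads, of enrichment and of exon length, with up to 4 genes per list by p and up to 8 genes per direction by change of level with a mean of at least 5 CPM. No genome of the files' build was used, so motifs over all members were not analysed here. Alternatives were other scalings, filters, blocks, pseudocounts, tools and each sample left out.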

Additional observations from a re-analysis of the deposited data

Results flagged for a closer look

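The change of m6A enrichment differed between UV and Control at 18 members in edgeR's quasi-likelihood test with the sample as a block, and at 0 without it. The 18 are 0.613% of the members tested, beside 0.872% of all peak rows called in the same fit. All peak rows include peaks called in a single arm, which the members do not. The log2 changes were 1.32 at Lrr1, 0.78 at Huwe1, 0.56 at a peak of Ttn and 0.38 at a peak of Srrm2, all higher in UV. They were −0.65 at a peak of Fcgbp, −0.55 at a peak of Nfx1, −0.51 at Socs6, −0.49 at Arid4b and −0.49 at Phf23. Peaks of Myo18a (−0.48), Nab1 (−0.45), Zfp710 (−0.45), Capn15 (−0.45), 2010111I01Rik (−0.45), Znfx1 (−0.42), Serpina12 (−0.42), Brwd1 (−0.36) and Erp29 (−0.35) were also lower in UV. Of the 18 peaks 3 lie in transcripts whose level passed edgeR's test in input, with log2 changes of −2.41 for Fcgbp (adjusted p = 0.00262), 0.89 for Serpina12 (0.0369) and 0.47 for Nab1 (0.0273). The level rose at Serpina12 and Nab1 while enrichment was lower. The Ttn level was −0.73 and did not pass (adjusted p = 0.282).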

How the results depend on the processing

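Of 1140 values recomputed for 94 named peaks and genes, 1021 kept their direction and side of the threshold, 86 lost a call, 31 gained one and 2 changed sign, both for Mki67 level (0.06), which was −0.01 (without UV replicate 2) to 0.12 when 1 sample was left out and −0.04 with library size only. Calls for a change of enrichment were 0 in each direction under every alternative except the sample block, with 4 up and 14 down, and leaving out any 1 sample gave 0. Those other alternatives, with a sample left out or not, were fitted without the block, so they do not test the calls made with it. IP reads gave 10 to 41 up and 8 to 33 down when 1 sample was left out, 43 up and 42 down with DESeq2, and 37 down with the replicate number shared by UV and Control as a block. Gene level gave 10 to 105 up and 5 to 78 down when 1 sample was left out, 28 up and 63 down with library size only, 132 up and 79 down with DESeq2, and 38 up and 17 down with the replicate block. That number did not pair UV with Control (r of input −0.0337, 0.0241 and −0.116), so a call lost under it is not a weaker effect. The UV median enrichment of 0.33 was 0.27 with a pseudocount of 5, and 1.19 (Control 1.07) when scaled to the gene table, and leaving out 1 sample gave 0.32 to 0.34 in UV and 0.16 to 0.22 in Control. Other exon limits (300, 500, 1000 bases) gave 3114, 2815 and 2013 members, 50% reciprocal overlap 2206 and whole peaks inside the exon 2841. The motif search over all members was not run. Depth limits the 197 members with under 60 input reads most. The causes were not tested.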
